A study of Rattus norvegicus with 16 samples.

Results

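The miRNAs miR-451 and miR-144 were followed in rat hippocampus 24 h after traumatic brain injury (TBI). They were chosen by name, as the array entries rno-miR-451 and rno-miR-144, because both are made in the red cell lineage and can serve as a gauge of the blood held in a piece of tissue. They are 2 of the 350 miRNAs on the array and are read by 4 of its 938 probes. Whole hippocampi of 16 Sprague-Dawley rats, males per the study's methods, were profiled on 1 Agilent Rat miRNA array each. The rats were naive (no procedure, 3 rats), sham-injured (2), injured by severe fluid percussion (TBI, 3), or injured in the same way and given 1 of 3 drugs, labeled PMI (3 rats), JM6 (3) and E33 (2). Dose, route and timing of the drugs were not given in the sources used here, and neither was whether the brains were flushed of blood before dissection. Every rat was sampled at 24 h, and no group received a drug without the injury.

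The 2 genes lie side by side and are copied as 1 transcript that is switched on by the red cell transcription factor GATA1. miR-451 is among the most abundant miRNAs of mature red cells and is made without the enzyme Dicer, its hairpin being cut by Argonaute 2 instead, while miR-144 is processed in the usual way and is the scarcer of the pair. In mice both help maturing red cells withstand oxidative stress, and red cells keep miR-451 after losing their nuclei. In brain RNA they are usually read as coming from blood.

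The mature sequences show what each probe had to recognize. RefSeq (build GRCr8) places miR-144-3p at chr10:63459446-63459465 and miR-451-5p at chr10:63459585-63459606, both on the plus strand, and the 2 hairpins are 89 bases apart. The seed, bases 2 to 8, is in capitals.
rno-miR-451-5p: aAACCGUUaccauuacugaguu
rno-miR-144-3p: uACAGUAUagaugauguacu
None of the 723 rat mature sequences compared shared either seed. The nearest were miR-101a-3p and miR-101b-3p, which match miR-144-3p in bases 2 to 7 and then part from it.
rno-miR-101a-3p: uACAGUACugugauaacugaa
rno-miR-101b-3p: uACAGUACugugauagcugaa
Each miRNA had a pair of probes that differ by 1 base at the end facing the miRNA's start. The capital marks the base that the longer probe of a pair has and the shorter one lacks.
A_26_P00001590: aactcagtaatggtaacggtT
A_26_P00001589: aactcagtaatggtaacggt
A_26_P00001384: agtacatcatctatactgT
A_26_P00001383: agtacatcatctatactg
The longer miR-451 probe pairs with bases 2 to 22 and the shorter one with bases 3 to 22. For miR-144 the pairing runs over bases 2 to 20 and 3 to 20. The array design places the miR-451 probes between 64129536 and 64129555 and the miR-144 probes between 64129397 and 64129414 of chromosome 10 in rn4. The longer probe was the brighter of each pair and stands for its miRNA below.

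Signals are given as log2 of the background-subtracted intensity over each array's 75th percentile, so a step of 1 is a doubling and 0 is the level of that percentile. Levels are compared for 1 probe across arrays, never between probes. A probe counted as well above background when over 50% of its spots carried that mark. The percentiles ranged from 1945 to 4042, between 293 and 463 probes an array were well above background, and 0 spots were saturated. The arrays filled 2 slides. All naive and TBI arrays and PMI replicates 1 and 2 were on slide 1, and PMI replicate 3 shared slide 2 with all arrays of the sham, JM6 and E33 groups. On naive replicate 1, TBI replicate 2 and PMI replicate 2 the spots of dim probes scattered most, with median coefficients of variation of 23.7%, 23.2% and 29.1% against 6.98% on the steadiest array. Of 8 neuronal and brain miRNAs that mark the labeled tissue 7 were well above background on all 16 arrays, and of 9 miRNAs best known from other tissues miR-122, miR-133a, miR-206 and miR-208 were so on none, miR-1 and miR-375 on 1, miR-133b on 15, and miR-192 and miR-194 on 16.

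miR-451 was measured firmly in every rat. All 160 spots of its longer probe were well above background. With the 14 spots marked as outliers left out, the spots of an array scattered by a median of 2.63% and at most 9.32%. The level nevertheless ranged 5.33-fold over the 16 hippocampi, and rats of the same group covered most of that range. The naive rats read -2.25, -1.29 and -3.38. They alone spanned a 4.26-fold range, from the lowest array of the series to one among the 4 highest.
The sham rats read -1.30 and -2.45, and the TBI rats -2.56, -0.97 and -1.32. TBI replicate 2 was the highest of the 16 arrays and TBI replicate 1 the next to lowest, so untreated injury held both a rich and a poor sample.
The PMI rats read -2.27, -1.12 and -1.44, the JM6 rats -1.74, -0.97 and -1.56, and the E33 rats -2.33 and -1.48. Every group overlapped every other.

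Ordered by their means, the groups ran from naive (-2.31 ± 1.05, SD, n = 3) through E33 (-1.90 ± 0.60, n = 2), sham (-1.88 ± 0.81, n = 2), TBI (-1.62 ± 0.84, n = 3) and PMI (-1.61 ± 0.60, n = 3) to JM6 (-1.42 ± 0.40, n = 3). Each step between neighbors in this order was smaller than the SD of either neighbor. The shorter miR-451 probe, on separate spots, ordered the groups alike except that sham (-3.26) came below E33 (-3.15). E33 minus sham was thus 0.11 on the shorter probe and -0.03 on the longer. The shorter probe cleared background on each of the 16 arrays and ranged 5.70-fold. Over the arrays it correlated with the longer probe at r = 0.99, a description of 1 RNA read by overlapping probes. The difference between the probes varied by an SD of only 0.09, against an SD within groups of 0.75 for the miRNA itself. The spread between rats was therefore wider than that between spots or between probes. The error between arrays of 1 RNA was not measured, since each rat had 1 array.

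**Figure D1:**
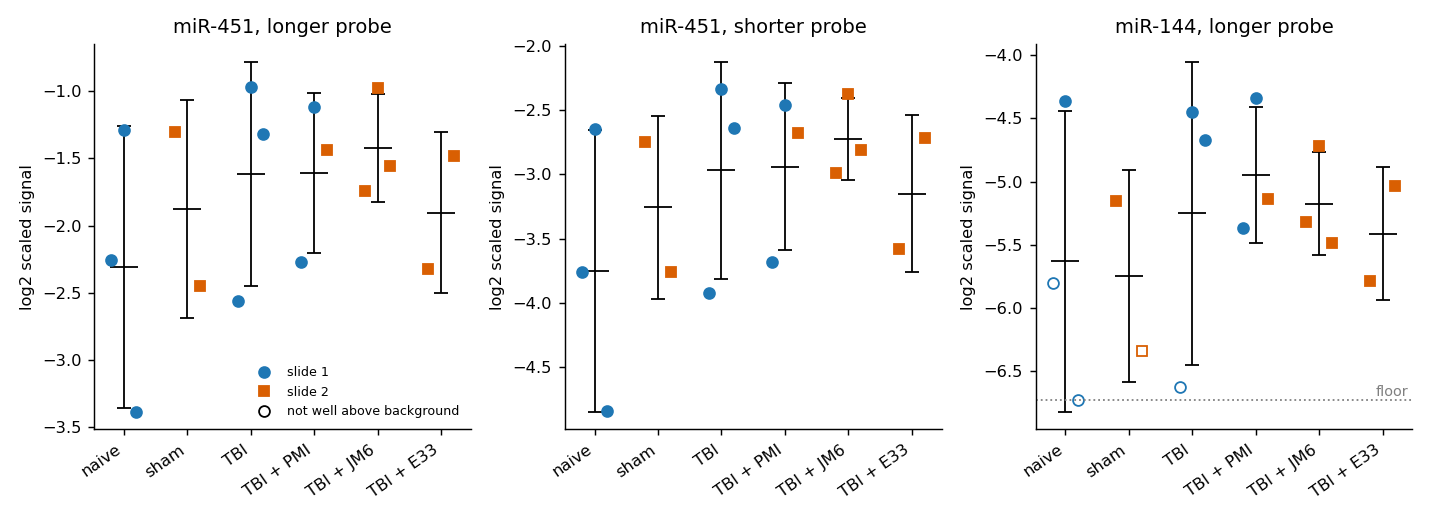
Log2 scaled signal of the longer and shorter miR-451 probes and the longer miR-144 probe on each of the 16 arrays, by group. Circles are arrays on slide 1 and squares arrays on slide 2, open symbols were not well above background, bars give the group mean ± SD, and the dotted line is the floor of -6.73. Within the naive group miR-451 runs from -3.38 to -1.29, and every group overlaps the others in all 3 panels.

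miR-144, the scarcer partner, lay near the limit of the array. Its longer probe was well above background on 12 of the 16 arrays, with 123 of 160 spots marked so, and the 4 arrays that missed were naive replicates 1 and 3, sham replicate 2 and TBI replicate 1. All 4 were among the 6 arrays with the lowest miR-451, which read between -3.38 and -2.25. The naive rats read -5.81, -4.36 and -6.73, the last held at the floor of -6.73. That floor is the arrays' median value for their dimmest signal still well above background. The sham rats read -5.15 and -6.34.
The TBI rats read -6.63, -4.45 and -4.67, again with replicate 1 far below the others. In the drug-treated rats the miRNA was well above background throughout. The mark did not follow the level alone. E33 replicate 1 carried it at 41.1 intensity units, whereas naive replicate 1 at 45.7 and sham replicate 2 at 49.8 did not. PMI rats read -5.37, -4.34 and -5.14, JM6 rats -5.32, -4.71 and -5.49, and E33 rats -5.79 and -5.04. Group means were -5.63 ± 1.19 for naive, -5.75 ± 0.84 for sham, -5.25 ± 1.2 for TBI, -4.95 ± 0.54 for PMI, -5.17 ± 0.41 for JM6 and -5.41 ± 0.53 for E33 (SD, with the same n as above). The groups overlapped here too, and the levels spanned at least 5.25-fold from the floor to PMI replicate 2.

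The spots behind these values show how thin the signal was. Before scaling, the longer miR-144 probe averaged between 23.8 and 171 intensity units an array. On naive replicate 1 a single spot of the longer miR-144 probe was left out as an outlier, and the 9 kept lay between 32.8 and 69.1. The shorter miR-144 probe hardly registered. It cleared background on 4 of 16 arrays, its mean intensity ran from -1.94 to 49.8, and 13 arrays were at the floor, so it carries no comparison.

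**Figure D2:**
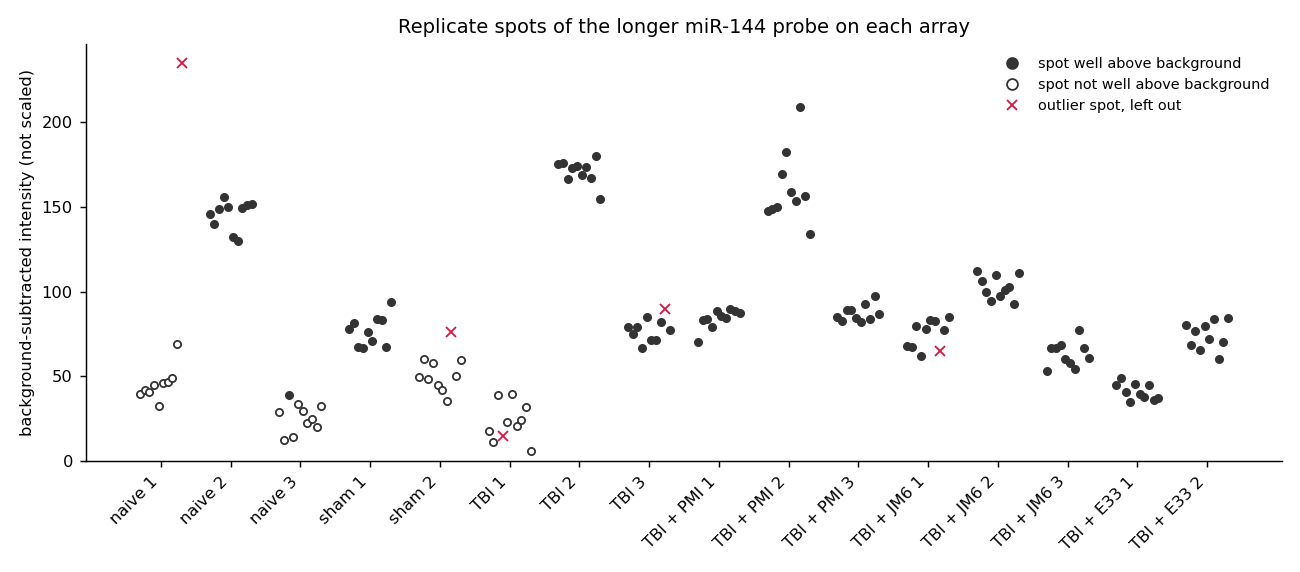
Background-subtracted intensity, not scaled between arrays, of each replicate spot of the longer miR-144 probe on the 16 arrays. Filled circles are spots well above background, open circles are not, and crosses are outlier spots that were left out. On naive replicates 1 and 3, sham replicate 2 and TBI replicate 1 nearly all spots are open, and on the other 12 arrays the kept spots are filled.

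In hippocampus that was injured but not treated, neither miRNA could be told from naive tissue. miR-451 averaged 0.69 higher after TBI, with a standard error of 0.59 and a 95% interval from -0.70 to 2.08 (limma adjusted p = 0.525, rank 90 of the 171 miRNAs tested). An exact permutation test of the 3 against 3 rats gave p = 0.5, where 0.1 is the smallest the design allows. In this comparison 0 miRNAs (0% of those tested) passed limma at an adjusted p under 0.05, 38 (22.2%) had an unadjusted p under 0.05, and the methods' t-test with its fold limit of 1.2 called 25, of which 0 were left after Benjamini-Hochberg adjustment. miR-144 averaged 0.38 higher, but since neither group had it above background on every array it was kept out of that fit. With the filter lifted its interval ran from -2.14 to 2.90 (limma adjusted p = 1). The intervals allow more than a doubling of either miRNA and also a fall, so a change of that size was not detectable with these rats. In whole tissue, more red cells and more of the miRNA in each red cell cannot be told apart.

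The drug groups were set against other groups in 1 fit over the 16 arrays that included a slide term. The sham and naive rats were neither injured nor treated. JM6 and E33 against sham, and PMI against naive, thus combine injury and drug, which cannot be told apart there. miR-144 entered this fit through the PMI, JM6 and E33 groups, which had it well above background on all their arrays, whereas it was so on 1 of 3 naive, 1 of 2 sham and 2 of 3 TBI arrays. Its differences from the naive, sham and TBI groups therefore rest in part on signals at background and were tested only because it was high enough in the drug groups. With the slide term the PMI differences rest on PMI replicates 1 and 2, and they are identical without replicate 3, the only PMI array on slide 2. PMI against untreated injury gave -0.08 for miR-451 (95% interval -1.48 to 1.33, limma adjusted p = 1) and 0.40 for miR-144 (-1.24 to 2.03, adjusted p = 0.976), and 0 of 230 miRNAs (0%) passed, with 26 (11.3%) at an unadjusted p under 0.05. PMI against naive gave 0.62 (-0.79 to 2.02, adjusted p = 0.602) and 0.78 (-0.85 to 2.42, adjusted p = 0.559). There 35 of the 230 miRNAs (15.2%) passed, 68 (29.6%) had an unadjusted p under 0.05, and neither red cell miRNA was among them. These PMI comparisons share the PMI arrays.
JM6 against sham gave 0.45 for miR-451 (-0.95 to 1.86, limma adjusted p = 0.913) and 0.57 for miR-144 (-1.06 to 2.21, adjusted p = 0.913), with 0 of 230 (0%) passing and 23 (10%) at an unadjusted p under 0.05. E33 against the same sham rats gave -0.03 (-1.57 to 1.51, adjusted p = 1) and 0.33 (-1.46 to 2.13, adjusted p = 0.859), with 3 of 230 (1.3%) passing. JM6 against E33 gave 0.48 (-0.93 to 1.89, adjusted p = 1) and 0.24 (-1.40 to 1.87, adjusted p = 1), with 0 of 230 (0%) passing and 4 (1.74%) at an unadjusted p under 0.05. In each comparison the rats of the groups overlapped for both miRNAs, and each interval reached a doubling or more in at least 1 direction.

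Pooling all 11 injured rats against the 5 uninjured ones, with the slide as a term and the same 230 miRNAs, narrowed the estimates. Here too miR-144 was tested only because of the drug groups, all on the injured side. Its difference rests in part on signals at background. miR-451 was 0.50 higher (standard error 0.34, 95% interval -0.23 to 1.22, limma adjusted p = 0.442) and miR-144 0.52 higher (0.39, -0.31 to 1.35, adjusted p = 0.481). Neither was among the 15 of 230 miRNAs (6.52%) that passed, and 38 (16.5%) had an unadjusted p under 0.05. Exact permutation within the slides gave p = 0.221 for miR-451 and p = 0.251 for miR-144 over 1568 arrangements. On slide 1 the differences were 0.66 and 0.54 and on slide 2 they were 0.29 and 0.50, and the slides did not differ past the threshold (limma adjusted p = 0.794 and 0.982). With the 3 arrays of widest spot scatter left out the differences were 0.29 and 0.27, and neither passed (limma adjusted p = 0.791 and 0.802).

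**Figure D3:**
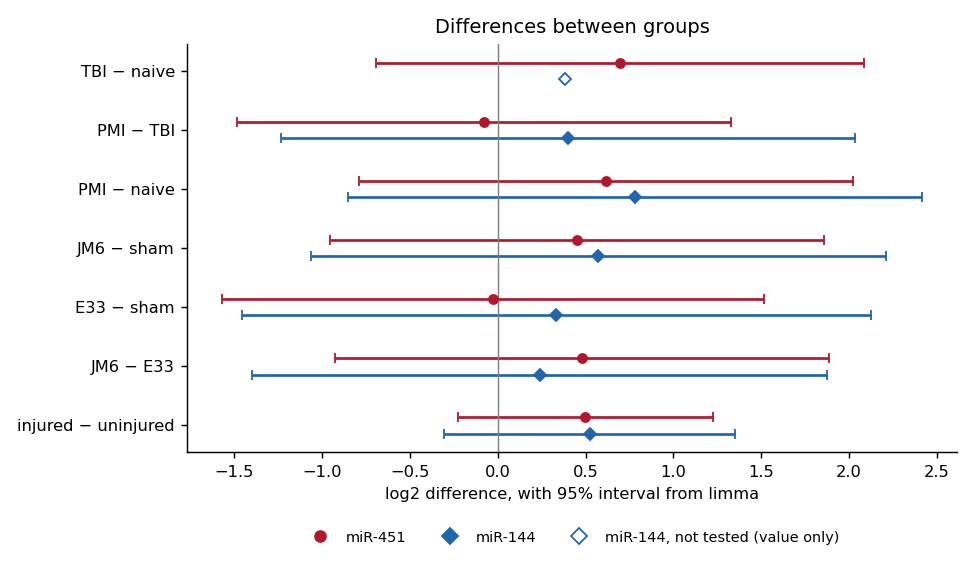
Log2 differences between groups, the first named minus the second, for miR-451 (circles) and miR-144 (diamonds), with 95% intervals from limma. The open diamond was not tested because miR-144 was not above background on all arrays of either group. Every interval includes 0, and the narrowest are those of all injured against all uninjured rats, from -0.23 to 1.22 for miR-451.

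Although the groups did not separate them, the rats did, and both miRNAs ordered the rats in nearly the same way. With the slide means removed, miR-451 and miR-144 correlated across the 16 arrays at Pearson r = 0.948 and Spearman rho = 0.941, each with p = 1e-05 in 100000 permutations, the smallest they can give, and 8e-05 after adjustment over the 8 miRNAs compared. Without the arrays farthest from the median, naive replicate 3 and sham replicate 2, r was 0.919. The relation held within each slide of 8 arrays, at r = 0.952 on slide 1 (exact permutation p = 0.000446) and r = 0.943 on slide 2 (exact permutation p = 0.000595). Over the 12 arrays on which miR-144 was well above background r was 0.935, and with the group means removed in place of the slide means it was 0.959. The points share each array's scaling. Without any scaling r was 0.964. With normexp background correction r was 0.589, and the cause of this lower value was not tested.

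Other miRNAs tied to blood were set against miR-451 in the same way. Of the 7 besides miR-144, miR-223 and miR-142-3p, both made by white cells, followed it most closely. miR-223 of granulocytes and monocytes had r = 0.620 (permutation test, adjusted p = 0.0495) and rho = 0.615 (adjusted p = 0.0577). Without the 2 farthest arrays r was 0.475 (permutation p = 0.108), so the relation no longer passed, and it was 0.841 on slide 1 (exact permutation p = 0.0147) but 0.301 on slide 2 (exact permutation p = 0.512). miR-142-3p, common to blood cells, had r = 0.615 (adjusted p = 0.0495), rho = 0.641 (adjusted p = 0.0577), r = 0.518 (permutation p = 0.0800) without those arrays, and 0.804 and 0.299 on the slides (exact permutation p = 0.0229 and 0.497).
miR-16, miR-92a and miR-25, abundant in red cells but made in brain as well, had r = 0.350, 0.499 and 0.329 (permutation test, adjusted p = 0.363, 0.162 and 0.363). miR-150 of lymphocytes had r = -0.141 (adjusted p = 0.652) and miR-126 of endothelium r = 0.221 (adjusted p = 0.575). Of the 8, only miR-144 had an exact permutation p under 0.05 on both slides.

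**Figure D4:**
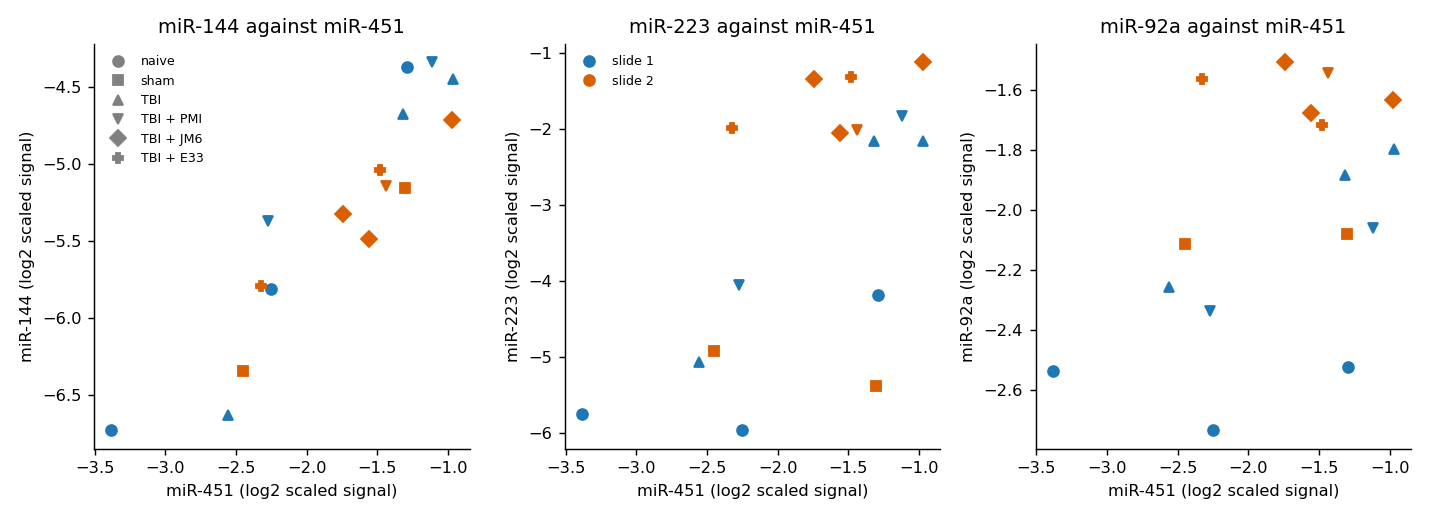
miR-144, miR-223 and miR-92a against miR-451, all as log2 scaled signal, with 1 point for each of the 16 arrays. Symbol shape gives the group and color the slide. miR-144 follows miR-451 along 1 line through all groups. On the sham and naive arrays miR-223 lies between -5.96 and -4.19, the latter on naive replicate 2, where miR-451 is also highest among them.

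The white cell miRNAs miR-223 and miR-142-3p did differ between injured and uninjured rats. miR-223 read between -5.96 and -4.19 in the 5 uninjured rats and was 2.81 higher in the injured (standard error 0.49, 95% interval 1.77 to 3.84, limma adjusted p = 0.00131). However, miR-223 was well above background on only 14 arrays, and neither the naive nor the TBI group had it so throughout. Its difference thus rests in part on signals not well above background, and it was not tested in TBI minus naive. miR-142-3p was 1.10 higher (0.22, 0.63 to 1.57, adjusted p = 0.00381). On the 8 arrays of slide 1 alone these differences were 2.24 and 0.91 and missed the threshold (limma adjusted p = 0.0814 and 0.117). miR-142-3p also missed it without scaling between arrays (adjusted p = 0.159) and in TBI minus naive (0.89, adjusted p = 0.205). Single rats show both patterns. Sham replicate 1 and naive replicate 2 were rich in miR-451 (-1.30 and -1.29) yet low in miR-223 (-5.38 and -4.19). Naive replicate 2 nevertheless had the highest miR-223 of the 5 uninjured rats. TBI replicate 2, with miR-451 at -0.97, had miR-223 at -2.17, and TBI replicate 1, with miR-451 at -2.56, had it at -5.07, within the range of the uninjured rats. PMI replicate 1 was likewise low in both, at -2.27 and -4.06. The difference between the changes of miR-223 and miR-451 was not tested.

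Among the 5 miRNAs that red cells hold in quantity but brain also makes (miR-16, miR-25, miR-92a, miR-93 and miR-185), 1 was called higher in the pooled injured rats. Of all 230 tested, 13 were called higher and 2 lower, 6.52% in both directions together. This was miR-92a, 0.51 higher (standard error 0.08, limma adjusted p = 0.000527). It missed the threshold without scaling between arrays (0.41, adjusted p = 0.465), on slide 1 alone (0.53, adjusted p = 0.0589) and in TBI minus naive (0.62, adjusted p = 0.135). miR-16 differed by 0.09 (adjusted p = 0.365), miR-25 by 0.12 (adjusted p = 0.365), miR-93 by 0.13 (adjusted p = 0.296) and miR-185 by -0.13 (adjusted p = 0.288). Their median difference was 0.12, against -0.05 over all miRNAs tested. Their summed scaled signal ran from 3.04 to 3.22 in naive, 3.69 to 3.88 in sham and 2.98 to 4.08 in injured rats. This sum adds different probes and is weighted to the brightest, miR-16 (log2 level 1.10 to 1.56). All naive arrays were on slide 1 and all sham arrays on slide 2, so that gap cannot be told from the slide. The 3 miRNAs known to fall as red cells mature (miR-221, miR-222 and miR-24) all missed the threshold, with differences from -0.05 to 0.12.
Of the 4 white cell miRNAs listed, 2 rose, the miR-223 and miR-142-3p named above. The others, miR-142-5p and miR-150, differed by 0.60 (limma adjusted p = 0.0958) and -0.10 (adjusted p = 0.574). Some arrays held miR-142-5p at the floor, and it was well above background on 9 of the 16 arrays. Of the 4 vessel miRNAs 0 passed limma's adjusted threshold and 0 had an unadjusted p under 0.05 (16.5% of all tested did). Their median was -0.16. Among them miR-145 was well above background on only 7 of the 16 arrays.

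miR-451 was also one of the miRNAs that varied most from rat to rat. Its SD within groups was 0.75, the fifth widest of the 161 miRNAs well above background on all arrays, whose median was 0.16. The 4 ahead of it were miR-204 (1.08), miR-34b (0.89), miR-34c (0.88) and miR-347 (0.86). miR-204 and the miR-34b and miR-34c pair are known from choroid plexus and ependyma, the linings of the ventricles beside the hippocampus, and miR-204 itself ranged from -0.96 to 2.56. The list of choroid plexus and ependyma miRNAs held miR-204 and miR-34c but not miR-34b. Of its other members, miR-211 was well above background on 5 arrays and miR-449a on 0. Whether ventricular lining was present in the samples was not tested. miR-16, which neurons share, varied by only 0.11 and miR-142-3p by 0.48. miR-144 was not among the 161 since it missed background on 4 arrays, and its own SD within groups was 0.87.

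**Figure D5:**
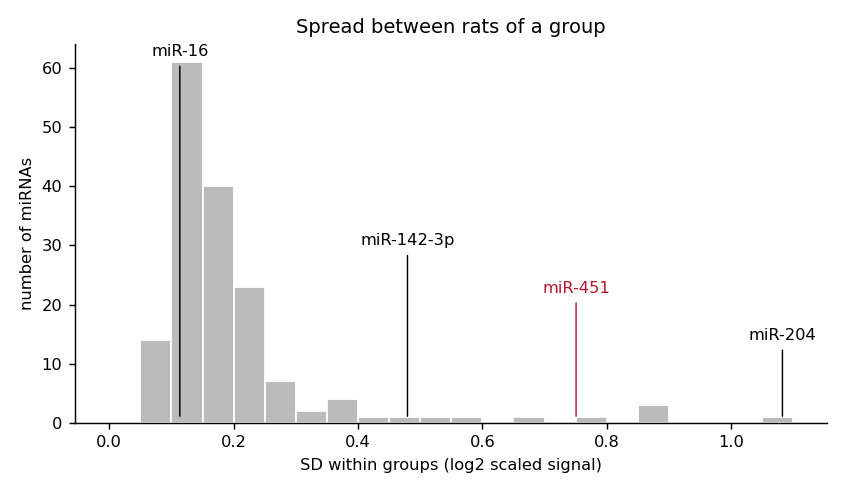
Histogram of the SD within groups (log2 scaled signal, x axis) of the 161 miRNAs that were well above background on all 16 arrays, with the number of miRNAs on the y axis. miR-451, at 0.75, lies in the upper tail, with the median at 0.16 and miR-16 at 0.11.

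Of the 160 other miRNAs above background on all arrays, those whose slide-centered pattern was most like that of miR-451 were miR-23a (r = 0.71), miR-27a (0.65), the entry miR-333_v11.0 (0.64), miR-142-3p (0.61) and miR-21 (0.57). The least alike were miR-329 (-0.57), miR-340-3p (-0.57) and miR-324-5p (-0.49). These values describe 16 arrays that share their scaling, and the highest was 0.71, against 0.948 for miR-144. miR-21 was 1.38 higher in the pooled injured rats, most of them drug-treated (limma adjusted p = 6.31e-05). In TBI minus naive it was 1.37 higher and missed the threshold (adjusted p = 0.136). With the group means removed miR-23a stayed at 0.72 and miR-21 at 0.65. Their ranges differed greatly, since miR-23a varied by an SD of 0.09 over the arrays and miR-27a by 0.22.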

How the data were processed

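Total RNA of 16 hippocampi was end-labeled with Cy3 and hybridized to 16 single-color arrays. The authors' image analysis used Agilent Feature Extraction 9.5.3.1. The deposited intensity of a spot is background-subtracted and not scaled between arrays. The authors' processed table (741 rows), made in GeneSpring GX11, holds intensities with low values at 0.01 and an unstated scaling, and was an alternative. A second table holding the same values was not used. Rows of the array design carry rn4 positions.

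Spots marked as outliers were dropped and the 5 to 20 spots of a probe averaged. The scale of an array was the 75th percentile of its 284 probes that passed background on every array. On the log2 scale a floor of -6.73 was set, the arrays' median value for their dimmest signal still well above background. The brightest probe stood for a miRNA. A miRNA was tested if it was well above background on all arrays of at least 1 group in the fit, which is any of the 6 groups where 16 arrays were fitted. Differences were fitted with limma 3.58.1 in R 4.3.3 (lmFit, eBayes), calling a Benjamini-Hochberg adjusted p under 0.05. The comparison of TBI with naive took its 6 arrays, all on slide 1, and the other comparisons used 16 with the slide as a term, which links the slides only through PMI and, in the pooled comparison, through the injured and uninjured labels. Single values were tested by exact two-sided permutation within slides, and correlations by permutation within slides with scipy 1.17.1. The number of arrays limits the precision.

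Per the deposited design text the samples are biological replicates, 3 in each group, but 2 sham and 2 E33 arrays were analysed here. The members, lists and tests were chosen with earlier results of these data known. The miRNAs named are the 2 members, the lists' miRNAs, the 5 most and 3 least like miR-451, and those varying more than it within groups. miRNAs such as miR-486 were not analysed here. Alternatives were normexp correction with an offset of 50, other scalings, filters, probe rules and slide terms, the replicate number as a block, and each array left out. The fit was tested on simulated data.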

Additional observations from a re-analysis of the deposited data

How the results depend on the processing

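The 14 differences of miR-451 and miR-144 were recomputed 377 times, 364 of them with a limma adjusted p. None of these was under 0.05 and the lowest was 0.221, so no alternative tried turned either miRNA into a call. The direction changed 26 times, 3 of them for the untested miR-144 in TBI minus naive and the others for differences whose intervals include 0, and the cause was not tested. miR-451 in PMI minus TBI became 0.011 with the percentile over all probes, 0.014 with quantile normalization, 0.30 without scaling (which moved the median of all miRNAs from -0.08 to 0.28), 0.016 in the authors' processed table and 0.0066 without the slide term. In E33 minus sham it became 0.028 with outlier spots kept and 0.011 with signals summed over probes. miR-144 in E33 minus sham became -0.16 without scaling and -0.12 in the authors' table. In that table it also became -0.044 in PMI minus naive and -0.17 in injured minus uninjured. The last was 0.15 when naive replicate 1, where the table's value stands highest, was left out, an alternative chosen after seeing the data. miR-144 in TBI minus naive, which had no test, was -0.55 in the table.

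Leaving out each array in turn moved miR-451 from 0.16 to 1.2 in TBI minus naive, 0.038 to 1.19 in PMI minus naive, -0.66 to 0.50 in PMI minus TBI, -0.12 to 1.03 in JM6 minus sham and -0.60 to 0.55 in E33 minus sham. It moved miR-144 from -0.16 to 1.07, 0.23 to 1.42, -0.29 to 0.91, -0.023 to 1.17 and -0.26 to 0.93 in the same comparisons and from -0.14 to 0.61 in JM6 minus E33. The counts of called miRNAs ran from 0 to 9 in TBI minus naive (9 without TBI replicate 1, 2 without TBI replicate 2), 0 to 1 in PMI minus TBI, 0 to 39 in PMI minus naive (0 without naive replicate 3, 1 without PMI replicate 1 and 13 without PMI replicate 2), 0 to 5 in JM6 minus sham, 0 to 6 in E33 minus sham and 0 to 2 in JM6 minus E33.

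Of the other alternatives, TBI minus naive called 1 with normexp, 1 without scaling, 7 in the authors' table, 4 with all 16 arrays fitted and 25 by the methods' t-test. PMI minus naive called 0 with normexp, 0 without scaling, 17 with the percentile over all probes (12 higher and 5 lower, against 6 and 29 in the main setting), 17 with quantile normalization (8 and 9), 13 in the authors' table (11 and 2), 20 with no filter and 15 on slide 1 only. JM6 minus sham called 2 with the percentile over all probes, 2 with quantile normalization and 12 on slide 2 only. E33 minus sham called 9 on slide 2 only, 1 with the percentile over all probes, 1 without scaling and 0 with normexp, outlier spots kept, the authors' table, the filter on all arrays or no slide term. Injured minus uninjured called 7 with normexp, 3 without scaling, 7 with the filter on all arrays and 9 on slide 1 only. Without the 3 arrays of widest spot scatter, left out after seeing the data, PMI minus naive and E33 minus sham called 0 and injured minus uninjured 8. The rises of miR-142-3p and miR-92a missed the threshold without scaling (adjusted p = 0.159 and 0.465) and that of miR-142-3p also without those 3 arrays (0.93, adjusted p = 0.0538).

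Between TBI and naive, deviations of same-numbered arrays gave r of -0.21, -0.11 and 0.12. Between PMI and TBI r was 0.38, 0.27 and -0.07, and between PMI and naive -0.44, 0.05 and 0.09. Not every pair correlated above 0.1 in any of these, so the numbers were not taken as pairs. With the number as a replicate block miR-451 in TBI minus naive stayed at 0.69 (limma adjusted p = 0.419), PMI minus naive called 28 and E33 minus sham 0, and no member's call changed. For E33 and sham the 2 numbers correlated at -0.16, and the crossed pairing, added after seeing the data, also called 0. Groups of 2 or 3 rats, and for miR-144 a signal near background, limit what could be detected.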

Other observations

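For miR-144 the authors' processed table and the spot means part on 1 array. The table's highest of 16 values, 0.83, is on naive replicate 1, where the longer probe's 9 kept spots average 45.7 intensity units and the probe is not well above background. The outlier spot left out there reads 234.3, and with it the mean of the 10 spots is 64.6. For miR-451 the table's value on that array is 1.91, within its range of 0.87 to 4.68 over the 16 arrays.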
